A study of Arabidopsis thaliana with 8 samples.

Results

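The NRAMP family is a group of membrane proteins that carry divalent metals such as manganese and iron (Fe) with the help of a proton gradient. In Arabidopsis thaliana, NRAMP1 takes up manganese, and also Fe, at the root surface. NRAMP3 and NRAMP4 release Fe from the vacuole, which is best known from the germinating seed. NRAMP2 supplies manganese inside the cell from a Golgi-associated compartment, and NRAMP6 is an intracellular transporter linked to cadmium sensitivity. URI (bHLH121) belongs to the basic helix-loop-helix transcription factors and acts in the response to low Fe. Factors of this class bind E-box DNA elements, of which the G-box is the best known form.

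The peaks described here are the rows of the authors' deposited table that overlap NRAMP1 (AT1G80830), NRAMP4 (AT5G67330) or NRAMP6 (AT1G15960), or lie within 1500 bp of them on either side. There are 4 such peaks at 3 genes, out of 2366 peaks in all. Chromatin bound by URI was immunoprecipitated from roots and sequenced (ChIP-seq). The plants were a complemented uri mutant line, so plants of both conditions carried the mutation and the transgene. The 3 URI libraries of the Fe-sufficient group and the 3 of the Fe-deficient group came from roots exposed to their Fe supply for 72 h, and each condition also had 1 IgG control library. The sources used here do not state the promoter or tag of the transgene, the number of lines or the age of the plants.

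The deposited table gives 1 mean concentration per Fe condition, read here as the log2 of normalised reads, together with a log2 change and its p-value and false discovery rate (FDR). It has no value per library, so the spread between replicates is not seen directly, depth per library is unknown, and the IgG level at these peaks is not analysed here. The error of a change is therefore given as an approximate 95% interval, from a standard error worked back from the p-value with a normal distribution. Where a change was under 0.2 in size, as at 1 of the NRAMP1 peaks, the standard error came from peaks of like concentration instead. Nothing in the labels shows that replicate libraries were planted separately, so these errors may be technical only. Changes are Fe deficiency minus Fe sufficiency, and a peak was called at a deposited FDR under 0.05.

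NRAMP4 had 1 URI peak, on chromosome 5 from 26860834 to 26861890 (TAIR10), and its signal was higher under Fe deficiency. With sufficient Fe its level in the authors' deposited table corresponded to 8.63 normalised reads, and under deficiency to 50.9. That is a 5.90-fold rise, or a log2 change of 2.56 with an approximate interval of 1.66 to 3.46 (FDR 2.94e-06 in the authors' deposited table). The rise was thus larger than the error the deposited p-value implies. The peak began outside NRAMP4 and reached into the gene, and its midpoint lay inside NRAMP4. Its outer part also overlapped the edge of the neighbouring gene HOS15 (AT5G67320), which encodes a WD40-repeat protein of histone deacetylation complexes. The table of peaks cannot assign the signal to 1 of these 2 genes.

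NRAMP1 had 2 peaks, 1 on each side, and neither was called. On chromosome 1 from 30376007 to 30376559, a peak overlapped the edge of NRAMP1, with its midpoint just outside the gene. Its level in the authors' deposited table corresponded to 11.4 reads when Fe was sufficient and 5.78 when it was deficient, a log2 change of -0.98 with an approximate interval of -2.05 to 0.09 (p = 0.0723). On the other side of the gene, from 30371784 to 30372298, the second peak did not overlap NRAMP1. In the authors' deposited table it had 8.63 reads when Fe was sufficient and 9.71 when it was deficient, a log2 change of 0.17 with an approximate interval of -0.90 to 1.24 (p = 0.773). The 2 sides of NRAMP1 thus had changes of opposite sign, but the difference between them, 1.15 on the log2 scale, had an interval of -0.36 to 2.66, which includes 0.

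NRAMP6 had 1 peak, on chromosome 1 from 5480835 to 5481331, which lay beside the gene without overlapping it. Its level in the authors' deposited table corresponded to 10.6 reads when Fe was sufficient and 4.99 when it was deficient. The log2 change was -1.09 with an approximate interval of -2.22 to 0.04 (p = 0.0578 in the authors' deposited table), so it was not called. With a mean concentration of 2.97 in the authors' deposited table it was the weakest of the 4 peaks.

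**Figure D1:**
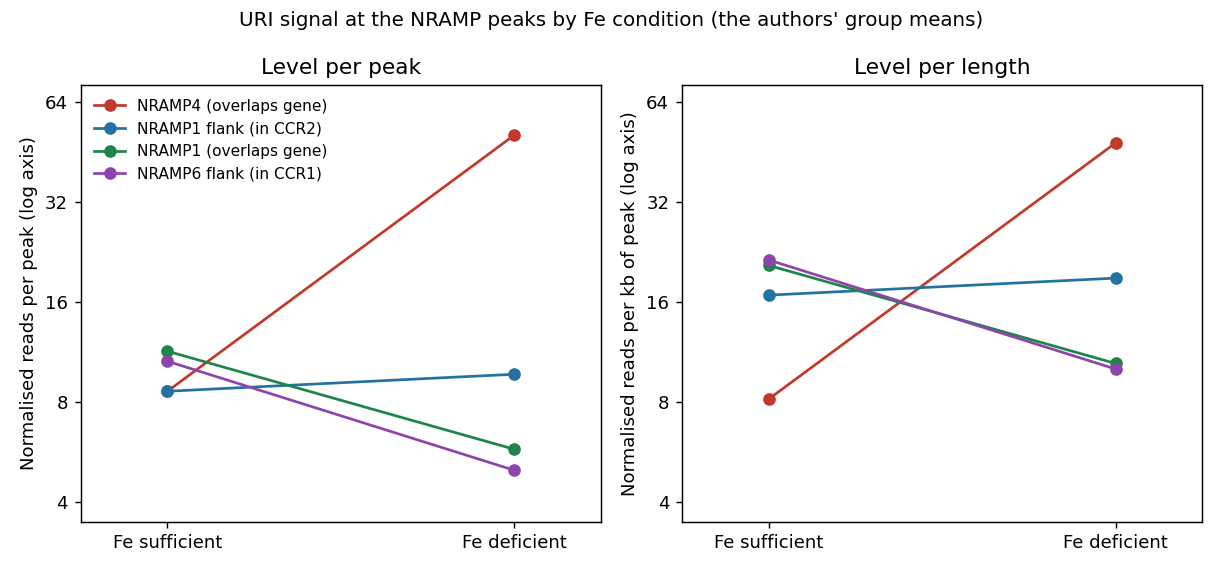
URI signal at the 4 NRAMP peaks with sufficient and deficient Fe, as normalised reads per peak (left) and per kb of peak (right), both on log axes. Each point is 1 of the authors' group means and has no error bar because the table has no value per library. The NRAMP4 line climbs from 8.63 to 50.9 reads, while the other 3 peaks stay between 4.99 and 11.4 reads.

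The flanking peaks of NRAMP1 and NRAMP6 shared a genomic setting. The peak beside NRAMP1 had its midpoint inside CCR2 (AT1G80820), the adjacent gene, and that beside NRAMP6 had its midpoint inside CCR1 (AT1G15950), again the adjacent gene. CCR1 and CCR2 encode cinnamoyl-CoA reductases, and CCR1 acts in lignin synthesis. In both places the annotation has the CCR gene overlapping the edge of the NRAMP gene. The NRAMP6 peak also overlapped AT1G05213, annotated as a long non-coding RNA. These peaks therefore lie in a CCR gene as much as beside an NRAMP gene. The peak positions do not assign the signal to either gene.

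In Fe-sufficient roots the 4 peaks held similar numbers of reads. With sufficient Fe they spanned 8.63 to 11.4 reads (the authors' deposited table), and NRAMP4 and the flanking NRAMP1 peak had the same concentration, 3.11. NRAMP4 was thus a weak peak in that condition, with only 14.2% of all peaks below it in concentration. Under deficiency its concentration in the authors' deposited table was 5.67, and 97.8% of all peaks lay below it, so that it ranked 53 of 2366. The flanking NRAMP1 peak reached 3.28 in the authors' deposited table, with 45.1% of peaks below it, whereas NRAMP1 (2.53) and NRAMP6 (2.32) had 8.83% and 3.93% below them.

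Peaks differed in width, and wider peaks gather more reads, so levels were also compared per length. The NRAMP4 peak was 1056 bp wide, and the others were 496 to 552 bp, against a median of 734 bp over all peaks. Per kb of peak, NRAMP4 had 8.18 normalised reads in Fe-sufficient roots and 48.2 in Fe-deficient roots. The former was the lowest density of the 4, since the flanking NRAMP1 peak had 16.8 reads per kb, NRAMP1 20.6 and NRAMP6 21.4. Each peak has 1 width for both conditions. NRAMP4 was thus less dense than the flanking NRAMP1 peak by its width alone, as both held 8.63 reads with sufficient Fe. Under deficiency NRAMP4 had the highest density, against 18.9 reads per kb at the flanking NRAMP1 peak, 10.5 at NRAMP1 and 10.1 at NRAMP6. The order of the peaks under deficiency was the same per peak and per kb.

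The change at NRAMP4 differed from those at the other 3 peaks by more than the errors implied by the deposited p-values. NRAMP4 exceeded the flanking NRAMP1 peak by 2.39 (log2 change, approximate 95% interval 0.99 to 3.79), NRAMP1 by 3.54 (2.14 to 4.94) and NRAMP6 by 3.65 (2.21 to 5.09). These intervals treat the peaks as independent although they come from the same libraries. Among the other 3 peaks no difference had an interval that left out 0, and that between NRAMP1 and NRAMP6 was 0.11 (-1.44 to 1.66). Intervals of this width do not show that those peaks changed alike.

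A general shift lies behind these values. The median log2 change over all 2366 peaks was -0.46, and 79.8% of peaks had a lower level under deficiency, so a small negative change is what most peaks showed. Relative to this median, NRAMP4 changed by 3.02 and the flanking NRAMP1 peak by 0.63, while NRAMP1 changed by -0.52 and NRAMP6 by -0.63. On this scale NRAMP4 passed again (recomputed FDR 4.99e-09), among 63 peaks or 4.81% of those adjusted. Taking away a negative median raises every change, so a peak that was already higher could only gain from this step. The approximate intervals of the other 3 relative changes all included 0, being -0.44 to 1.70 at the flanking NRAMP1 peak, -1.59 to 0.55 at NRAMP1 and -1.76 to 0.50 at NRAMP6.

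Only the NRAMP4 peak could be called at all in the deposited adjustment. Peaks were left out of it by their mean concentration over both conditions. NRAMP4 (4.89) was included through its value under deficiency, 5.67, as with sufficient Fe its concentration was 3.11. The 3 other peaks had mean concentrations of 2.97 to 3.20 in the authors' deposited table, below the level of about 3.52 (11.5 reads) under which 1055 peaks were left out of the adjustment and given an FDR of 1. Of the 1311 adjusted peaks, 26 were called higher under deficiency (1.98%) and 1 lower (0.0763%), and NRAMP4 was among the 26. Adjusted over all 2366 peaks instead, 1.14% of peaks were called in either direction, and the FDR was 5.30e-06 for NRAMP4, 0.388 for NRAMP6, 0.396 for NRAMP1 and 0.861 for the flanking NRAMP1 peak. The 3 weaker peaks thus did not pass when they were included in the adjustment, which does not show that their signal was the same in both conditions. Another peak of similar mean concentration, AT5G22120 at 3.0, did pass that adjustment (FDR 0.000407).

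**Figure D2:**
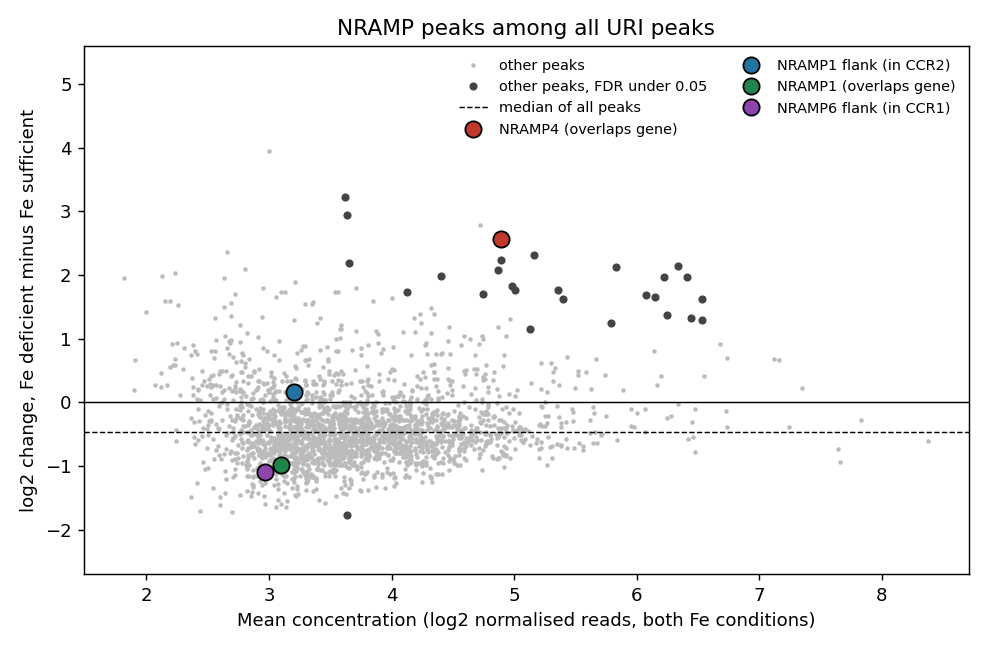
Log2 change between the Fe conditions against mean concentration for all 2366 peaks, with the 4 NRAMP peaks coloured, the other called peaks in dark grey, and the median change of -0.46 as a dashed line. NRAMP4 sits above the bulk at 2.56, whereas the NRAMP1 and NRAMP6 peaks lie within it at low concentration.

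Among all peaks, NRAMP4 ranked 5 of 2366 by log2 change and 10 by p-value. Directly above it in change was MYB72 (AT1G56160), the gene of a MYB transcription factor of coumarin secretion, at 2.79 in the authors' deposited table (FDR 0.0689), and directly below it AT1G47400 at 2.36 (p = 0.000808). Among the 26 peaks called higher, NRAMP4 ranked 3 by change but only 15 by reads under deficiency. Its 50.9 reads compare with a median of 61.6 over those 26 peaks and its 8.63 reads with sufficient Fe with a median of 19.7. Both of its levels were thus below the medians of the called peaks, that with sufficient Fe by the larger factor.

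Peaks that held about as many reads as NRAMP4 when Fe was sufficient mostly stayed low under deficiency. There were 164 peaks, NRAMP4 and the flanking NRAMP1 peak included, whose concentration with sufficient Fe lay within 0.1 (log2) of that of NRAMP4. Their median under deficiency was 6.89 reads, and the highest value after NRAMP4 was 33.8. The flanking NRAMP1 peak, with 9.71 reads, was exceeded by 24 of them. The median change of these 164 peaks was -0.36, and 3 of them, NRAMP4 included, were called higher. Over all 1311 adjusted peaks, 1.98% were called higher. A peak this weak with sufficient Fe enters the deposited adjustment only if deficiency lifts its mean concentration to about 3.52. Only a rise could therefore be called in this set, and NRAMP4 is in the adjustment through its level under deficiency.

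**Figure D3:**
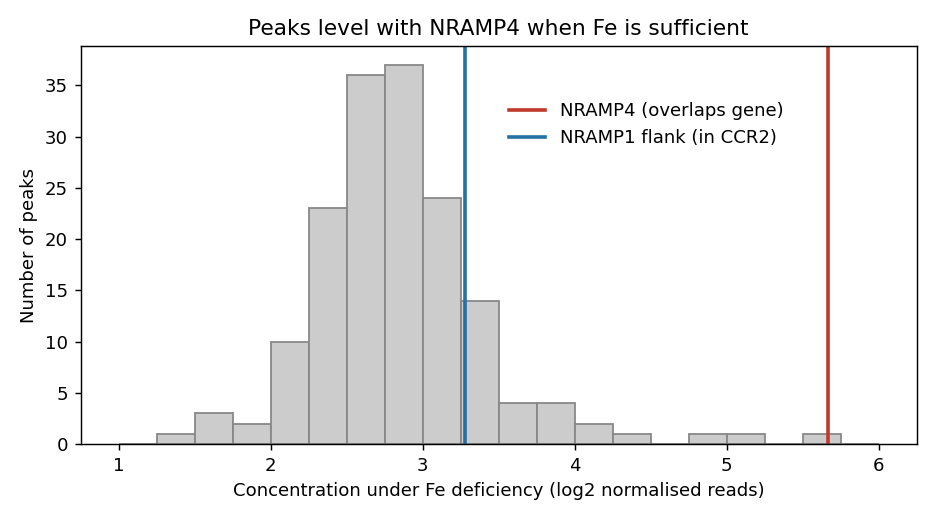
Histogram of the concentration under Fe deficiency (log2 normalised reads) for the 164 peaks that were within 0.1 of NRAMP4 with sufficient Fe. NRAMP4 at 5.67 is the highest of them, and the flanking NRAMP1 peak at 3.28 lies in the upper part of the bulk.

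The peaks next to that of NRAMP4 on the chromosome were not called. The nearest on the side of HOS15 began 6780 bp away, was closest to MYBR1 (AT5G67300), the gene of a MYB transcription factor, and had a log2 change of -0.22 in the authors' deposited table (FDR 0.653). The nearest on the other side was 5854 bp away, was closest to AT5G67340, and had 14.4 reads in Fe-sufficient and 6.32 in Fe-deficient roots. Its log2 change was -1.20 in the authors' deposited table (p = 0.0324). This peak was left out of the deposited adjustment, so it could not be called. Around NRAMP1 and NRAMP6, the next peaks were not called either. Of these, the peaks closest to AT1G80620 and to WAKL4 were also outside the deposited adjustment. On the far side of NRAMP1, 6111 bp from the peak at its edge, lay a peak closest to WRKY40 (AT1G80840), the gene of a transcription factor of defence and abscisic acid responses, at 17.8 reads in Fe-sufficient and 17.0 in Fe-deficient roots. For NRAMP6 the next peaks were 38.1 kb and 50.6 kb away.

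The remaining genes of the family had no peak in the table. NRAMP2 (AT1G47240), NRAMP3 (AT2G23150) and NRAMP5 (AT4G18790) had none within 1500 bp or within 3000 bp, and neither did EIN2 (AT5G03280), an ethylene signalling gene whose protein has an NRAMP-like domain. NRAMP3 therefore differs from NRAMP4, the other vacuolar Fe exporter of the pair, in having no listed peak. Widened to 10000 bp, the search gave 1 peak for NRAMP3 and still none for NRAMP2, NRAMP5 and EIN2. A gene without a listed peak may still have URI signal too weak to be called as a peak. Over all protein-coding genes, 11.8% had a peak within 1500 bp.

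Other Fe, manganese and zinc transporters give the NRAMP values a setting. Of 27 listed genes, 24 were found by name in the annotation, and 12 of these had a peak within 1500 bp, again 12 peaks in all because IRT1 and IRT2 share 1 and VTL1 has 2. Of these 12 peaks, 10 were adjusted. Among those, 3 were called higher under deficiency and 0 lower in the authors' deposited table, against 1.98% and 0.0763% of all adjusted peaks. The 3 called higher included the peak of IRT1 and IRT2, the main root Fe uptake transporter and its relative (log2 change 2.15 in the authors' deposited table). The others were at OPT3, which moves Fe in the phloem (1.66), and ZIF1, which brings nicotianamine into the vacuole (1.32). None of the 12 had a larger change than NRAMP4. The other 9, within 1500 bp of VTL1, VTL2, VTL5, YSL3, CAX2, FPN1, ECA3 and ZIP2, ranged from -0.84 to 1.0. Those counted for CAX2, FPN1, ECA3 and ZIP2 did not overlap these genes and were closest to other genes. Of the 2 VTL1 peaks, 1 overlapped no gene and was closest to IGMT4. The peak of IRT1 and IRT2 overlapped IRT1 only, and that of ZIF1 also overlapped SIG4 (AT5G13730). The peak positions do not assign such signal to the transporter genes. The median over the 12 peaks was 0.34, against -0.46 over all peaks, and 2 of the 12 were too weak to be adjusted.

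NRAMP4 started from a lower level than the called peaks of these transporters. With sufficient Fe, IRT1 had 29.7 reads, OPT3 34.1 and ZIF1 49.5 in the authors' deposited table, compared with 8.63 at NRAMP4. Under deficiency they reached 133, 108 and 124 reads, so the NRAMP4 peak was the weakest of these 4 peaks while its fold change was the largest. Its approximate interval of 1.66 to 3.46 overlaps that of IRT1, 1.59 to 2.71, so the data do not separate these 2 in size of change. The peak overlapping NRAMP1 and the peak beside NRAMP6, at -0.98 and -1.09, lay below each of the 12 peaks of other transporters. The flanking NRAMP1 peak, at 0.17, lay within the range of those 12. The lowest of the 12, at -0.84, lay near ZIP2 but overlapped another gene. The intervals of the NRAMP peaks at -0.98 and -1.09 are wide and overlap that of this peak.

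**Figure D4:**
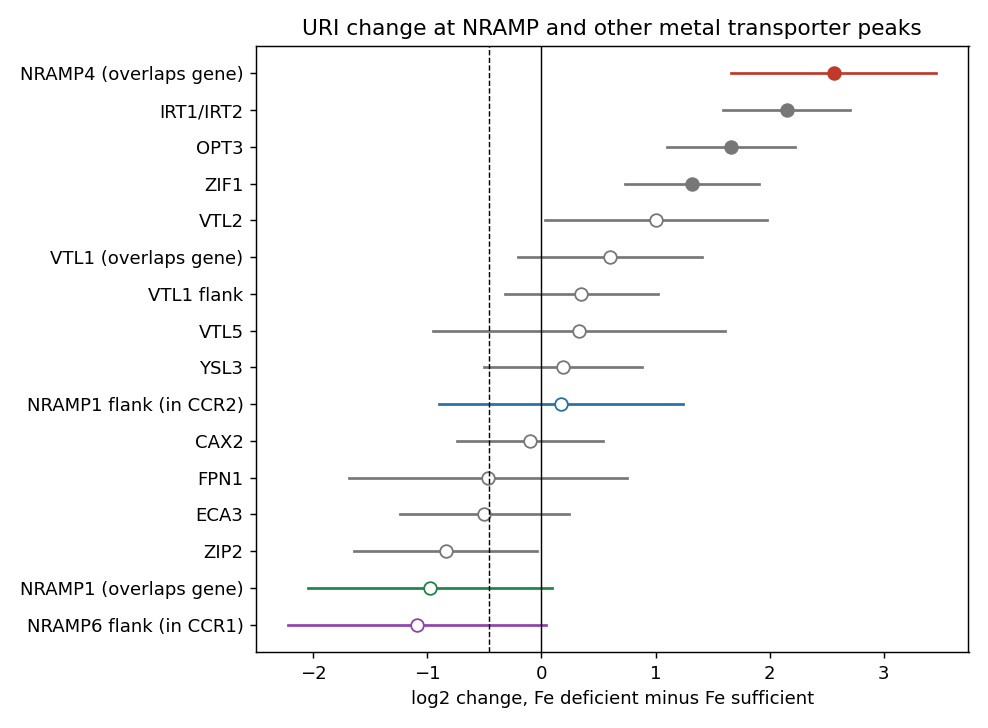
Log2 change in URI signal between the Fe conditions at the 4 NRAMP peaks (coloured) and 12 peaks within 1500 bp of other metal transporter genes (grey). The approximate 95% intervals are implied by the deposited p-values, or for changes under 0.2 in size by peaks of like concentration. Filled points have a deposited FDR under 0.05, the solid line is 0 and the dashed line is the median of all peaks (-0.46). NRAMP4 at 2.56 heads the plot and NRAMP6 at -1.09 ends it.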

How the data were processed

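The submitters' processing notes name TAIR10, DiffBind, MACS2, bedtools (2.26.0), Picard (2.4.1), SAMtools (1.3.1), Bowtie (1.2.2) and Trimmomatic (0.33). The sources used here do not state their settings, the normalisation, how IgG was used or whether libraries were pooled for peak calling. The authors deposited 1 table of concentrations and a fold, read here as log2 values because the overall concentration equals the log2 of the mean of both conditions within 0.0093. The deposited fold is sufficiency minus deficiency, and its sign was reversed. The deposited p-values and FDR are the authors' own, and Benjamini-Hochberg adjustment of 1311 peaks gave their FDR within 0.489%.

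Groups came from the sample titles. Genes were placed with RefSeq (TAIR10.1, no strand), used for names and neighbours, so the start and end of a gene cannot be told apart. Peak coordinates were left as deposited, and their first base may be numbered 0 or 1. For changes under 0.2 in size, the implied standard error was replaced by the median of the 101 peaks nearest in concentration. This applied to the flanking NRAMP1 peak and to the peaks of YSL3 and CAX2. Recentring subtracted the median change and recomputed p. Both steps were run on simulated data (Python 3.11.15, SciPy 1.17.1). These had normal errors of 1 common size, so they do not test errors that vary between peaks or p-values of another form. Named genes are the NRAMP family, genes overlapping or nearest to their peaks, called transporters and the neighbours of NRAMP4 in rank. AT5G22120, SIG4, GTG1, the uncalled transporters, the genes near the next peaks and the called genes of the further observations were chosen after their values were seen. The members and lists were chosen with earlier results of these data known. No sequence is shown, since no genome sequence was used here, and the planned motif counts were not made.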

Additional observations from a re-analysis of the deposited data

How the results depend on the processing

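NRAMP4 stayed called at FDR thresholds of 0.01 and 0.1, with adjustment over all peaks and after recentring. Its deposited FDR of 2.94e-06 already met both thresholds, and recentring could only enlarge a positive change. These settings were therefore no strict check of its call. The other 3 NRAMP peaks were outside the deposited adjustment, so only the adjustment over all peaks could have called them, and it did not. No NRAMP change turned sign after recentring, as none lay between -0.46 and 0. Over all peaks, recentring gave 63 higher and 0 lower in place of 26 and 1, since it moves every change up by 0.46. The lower calls numbered 0 at an FDR of 0.01 and 6 at 0.1. The NRAMP genes with a peak stayed at 3 with windows of 1000 and 3000 bp and were 2 when a peak had to overlap the gene, which drops NRAMP6. The other transporter genes with a peak were 11 and 14 with those windows in place of 12, and 7 with overlap, a setting chosen after seeing the data, as were the levels per kb and the differences between peaks. No paired analysis was possible because the table has no column per replicate, and for the same reason no replicate could be left out. The NRAMP1 and NRAMP6 peaks had few reads and wide intervals.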

Other observations

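A rise of more than 4-fold was rare. Of 2366 peaks, 14 rose by more than that under Fe deficiency. Of these 14, 4 were outside the deposited adjustment and 9 were called in the authors' deposited table. Over all adjusted peaks 1.98% were called higher, but the 14 were picked by size of rise, which favours a call. Falls of that size were not counted. Apart from NRAMP4, the 9 called peaks of this set included AT2G14247, from 12.0 to 59.7 reads, a peak closest to IGMT5, from 10.4 to 48.8 reads, and CDI (11.2 and 47.5 reads) in the authors' deposited table. These 3 resembled NRAMP4 in level under both conditions. The CDI peak also overlapped GTG1 (AT1G64990). The largest rise of all, 3.95 at AT5G22120 (p = 2.58e-06 in the authors' deposited table), rested on 0.973 and 15.0 reads. Its FDR was set to 1 because of its low mean concentration.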
